A study of Rattus norvegicus with 9 samples.

Results

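Itpr1 encodes the type 1 inositol 1,4,5-trisphosphate (IP3) receptor, the calcium release channel of the endoplasmic reticulum. It is described here from the single transcript that the study pairs with the symbol, ENSRNOT00000009288, which is 1 of 31786 transcripts counted and 1 of 22283 that passed the filter on low counts. The study listed Itpr1 among its epilepsy-related genes, which had a link to seizure-related disorders in gene databases or earlier literature. The listed genes were also picked for a change between pilocarpine-treated and control rats on a standard diet. That contrast is therefore given as a description without a test.

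mRNA of the dorsal hippocampus of male Wistar rats weighing 300 to 350 g was sequenced in 9 libraries, 1 per animal and 3 per group. CTRL rats received methyl scopolamine (1 mg/kg) and saline and ate a standard diet. PILO rats received the same methyl scopolamine dose, then pilocarpine at 340 mg/kg, and ate a standard diet, while PILO+KD rats were treated in the same way and fed a ketogenic diet, which is high in fat and low in carbohydrate. Rats without status epilepticus after the first injection were given a second one of 175 mg/kg, status epilepticus was ended with diazepam (8 mg/kg) after 60 min, and animals were observed for 84 days. The rats were age-matched, their age was not stated, and no group of unseized animals on the ketogenic diet was sequenced among these libraries, so that diet is compared within pilocarpine-treated rats alone.

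IP3 is formed when receptors coupled to the G protein Gq activate phospholipase C, and it opens the IP3 receptor to release calcium from the endoplasmic reticulum into the cytosol. The type 1 receptor is the main neuronal form and is abundant in cerebellar Purkinje cells and in hippocampal pyramidal neurons. Muscarinic receptors, on which pilocarpine acts, include subtypes that signal through Gq and IP3. Mice lacking Itpr1 show ataxia and seizures, and loss of a gene copy in man causes a spinocerebellar ataxia.

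Total counts ranged from 9904067 to 24092617 per library, with the lowest in PILO+KD replicate 3, which was also the only library on another flow cell. PILO replicate 3 stood apart on the first principal component of log2 CPM (43.6% of the variance), at 111 against -49.6 to 9.50 for the other libraries. Levels are given as CPM, that is counts relative to the library total, scaled by trimmed mean normalization (TMM). The file pairs no identifier with a symbol, so the tissue label could be checked only against the transcripts the study names. Among these the astrocyte gene Gfap and the neuronal genes Gabrd, Scn8a and Kcna1 were detected in all 9 libraries. Their detection cannot tell dorsal hippocampus from other brain regions, and the study listed them from these same libraries. The tissue label is therefore taken as given.

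Itpr1 was well counted in every library. CTRL replicates 1 to 3 held 4545, 3478 and 6419 counts of it, PILO replicates 1 to 3 held 2073, 2770 and 1273, and PILO+KD replicates 1 to 3 held 3393, 4523 and 1300. Counting error was small beside the spread between animals. The coefficient of variation that counting alone would give was 1.49% in CTRL, 2.33% in PILO and 2.07% in PILO+KD, whereas the observed one was 11.5%, 22.4% and 32.9%. The biological coefficient of variation fitted to Itpr1 was 22.4%, against 21.1% for transcripts of its abundance. No other transcript had the same counts in all libraries.

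Itpr1 was highest in CTRL, intermediate in PILO+KD and lowest in PILO. The CTRL libraries lay at 219, 233 and 273 CPM (mean 242 ± 27.9, SD, n = 3). The PILO libraries lay at 115, 112 and 74.4 CPM (mean 100.3 ± 22.5, SD, n = 3), so that every PILO library was below every CTRL library, with a gap of 105 CPM between the groups. The PILO+KD libraries lay at 146, 225 and 122 CPM (mean 164 ± 54.1, SD, n = 3). They were the most dispersed: replicate 2 fell within the CTRL range, and replicates 1 and 3 lay between the CTRL and the PILO libraries. The highest library was 1.84 times the lowest in PILO+KD, 1.54 times in PILO and 1.24 times in CTRL.

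**Figure D1:**
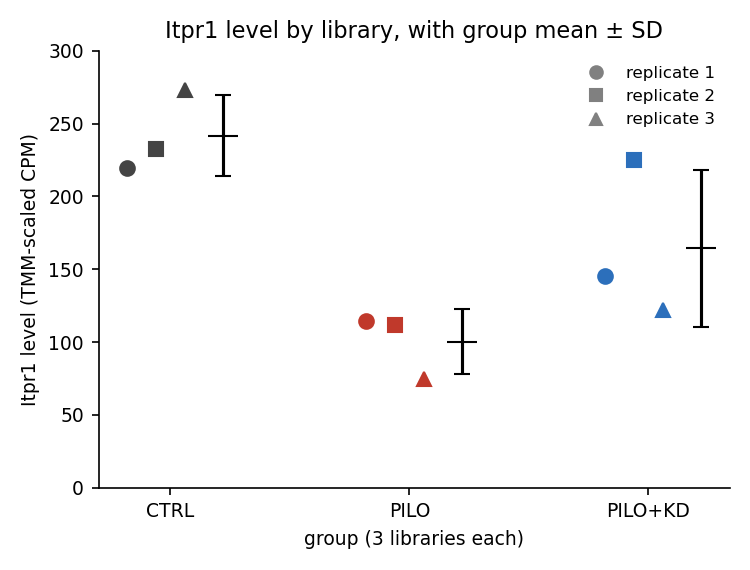
Itpr1 level in each library (TMM-scaled CPM, vertical axis) by group, with symbols for the replicates and bars for the group mean ± SD of 3 libraries. The PILO libraries sit at 74.4 to 115 CPM, below all CTRL libraries at 219 to 273 CPM, while PILO+KD replicate 2 (225 CPM) sits within the CTRL range.

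The comparison of PILO with CTRL asks how expression differed in chronic epilepsy on a standard diet. Mean Itpr1 in PILO was 41.5% of that in CTRL, and the log2 fold change was -1.27 (SE 0.25). Of all transcripts tested, 0.673% had a lower log2 fold change, and the groups did not overlap in the lower direction for 14.2% of transcripts. Since Itpr1 was chosen on this contrast, nothing is read from these shares. The lowest PILO library was replicate 3, the one that stood apart. Without it the log2 fold change was -1.09 (SE 0.22). In bulk tissue, fewer cells that express Itpr1 and less Itpr1 mRNA per cell cannot be told apart.

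The comparison of PILO+KD with CTRL asks whether Itpr1 departed from its control level in epileptic animals on the ketogenic diet. Itpr1 was chosen with results of all 9 libraries known, and the CTRL libraries entered the choice directly. Mean Itpr1 in PILO+KD was 68.0% of that in CTRL, with a log2 fold change of -0.56 (SE 0.25, 95% interval -1.10 to -0.02 before adjustment), and the groups overlapped. The difference was not significant in the quasi-likelihood test of edgeR after Benjamini-Hochberg adjustment over all transcripts (unadjusted p = 0.0444, adjusted p = 1.00). An unadjusted p under 0.05 was reached by 3.6% of transcripts in this contrast. The exact two-sided permutation p was 0.2, where 3 against 3 libraries can give no less than 0.1.

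PILO+KD was compared with PILO to ask whether Itpr1 differed with diet within pilocarpine-treated rats. Itpr1 was 1.64 times as high in PILO+KD as in PILO, with a log2 fold change of 0.71 (SE 0.25, 95% interval 0.17 to 1.25 before adjustment). This difference also did not pass over all transcripts (edgeR quasi-likelihood test, unadjusted p = 0.0141, adjusted p = 0.624), and 7.19% of transcripts had an unadjusted p under 0.05. The exact two-sided permutation p was 0.1, the smallest that the design allows. Itpr1 was higher in each PILO+KD library than in any PILO library, a separation found in this direction for 5.65% of transcripts. The gap was narrow, at 7.66 CPM between PILO+KD replicate 3 (122 CPM) and PILO replicate 1 (115 CPM). The exact 95% Poisson intervals of these 2 libraries, which cover counting error only, overlapped (116 to 129 CPM and 110 to 120 CPM). Itpr1 had been picked for its low level in these PILO libraries, which favours a higher level in any group set against them.

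A single library, PILO+KD replicate 2, moved both diet comparisons most. Without it the log2 fold change was -0.85 against CTRL (SE 0.23, adjusted p = 0.398) and 0.41 against PILO (SE 0.23, adjusted p = 0.591) in the edgeR quasi-likelihood test. When PILO+KD replicate 3 was left out, so that the other 8 libraries shared a flow cell, the log2 fold changes were -0.38 against CTRL (SE 0.26) and 0.89 against PILO (SE 0.26). Placed on the log2 scale between the PILO mean (0%) and the CTRL mean (100%), PILO+KD replicates 1 to 3 lay at 43.7%, 92.6% and 24.1%.

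**Figure D2:**
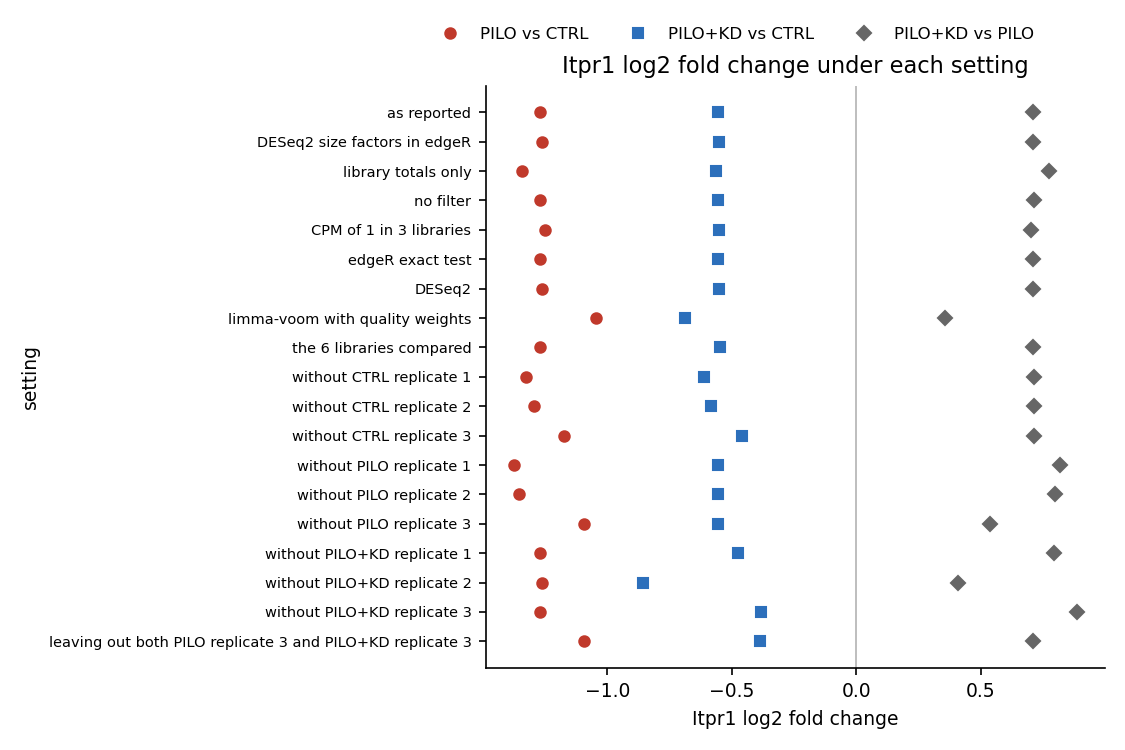
Itpr1 log2 fold change (horizontal axis) in the 3 contrasts under each setting of normalization, filter, tool and libraries (vertical axis). The sign was kept throughout, from -1.37 to -1.04 for PILO vs CTRL, from -0.85 to -0.38 for PILO+KD vs CTRL and from 0.36 to 0.89 for PILO+KD vs PILO.

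With the annotation at hand, which held no pairing of Ensembl transcripts with symbols, no further gene of the IP3 pathway could be matched. Of the other transcripts the study names, Atp2a2 belongs to calcium handling, and Cacng2 is a calcium channel gene by name. Atp2a2 encodes SERCA2, the pump that returns calcium to the endoplasmic reticulum and so fills the store that the IP3 receptor empties. Its levels were 297, 329 and 357 CPM in CTRL, 215, 214 and 66.9 CPM in PILO and 334, 279 and 233 CPM in PILO+KD. Atp2a2 was thus lower in every PILO library than in any CTRL library, as were 14.2% of all transcripts. Its log2 fold change was -0.99 (SE 0.35), but much of this came from PILO replicate 3, without which it was -0.61 (SE 0.17). The study picked Atp2a2 for this contrast, so nothing is read from the separation, and a rise against PILO is favoured by that choice. In PILO+KD vs PILO Atp2a2 had a log2 fold change of 0.77 (SE 0.35), which did not pass (edgeR adjusted p = 0.624). Without PILO replicate 3 it was 0.39 (SE 0.17).

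The channel and the pump did not keep 1 ratio across libraries. The log2 CPM of Itpr1 minus that of Atp2a2 was -0.44, -0.50 and -0.39 in CTRL replicates 1 to 3. It was lower, at -0.91 and -0.94, in PILO replicates 1 and 2, and higher, at 0.15, in PILO replicate 3. In PILO+KD replicates 1 to 3 it was -1.20, -0.31 and -0.93. This difference does not depend on library scaling, and it lay outside the narrow CTRL range in all 6 pilocarpine-treated libraries, on both sides of it. PILO+KD replicate 2, at -0.31, lay only just above the highest CTRL value of -0.39, and the far value above was that of PILO replicate 3. How often other pairs of transcripts leave the CTRL range was not counted. Both genes were picked on PILO vs CTRL, so nothing is read from this. The difference was not tested.

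Cacng2 encodes stargazin, an auxiliary subunit of AMPA receptors named as a calcium channel gamma subunit. It lay at 21.2, 23.1 and 25.6 CPM in CTRL, 14.6, 14.9 and 6.90 CPM in PILO and 19.4, 17.8 and 14.2 CPM in PILO+KD. Its log2 fold changes were -0.94 (SE 0.27) in PILO vs CTRL and 0.50 (SE 0.27) in PILO+KD vs PILO, and the latter did not pass (edgeR adjusted p = 0.624). Without PILO replicate 3 they were -0.66 (SE 0.18) and 0.22 (SE 0.18). The PILO+KD and PILO libraries overlapped for Cacng2, by PILO+KD replicate 3. Cacng2 too was picked by the study for PILO vs CTRL, so nothing is read from its fall there, and a rise against PILO is favoured.

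The 4 voltage-gated channel genes analysed from the study's list lay lower in every PILO library than in any CTRL library, as did Itpr1 and 14.2% of all transcripts. Their log2 fold changes in PILO vs CTRL were -2.20 (SE 0.34) for Scn4b, a sodium channel beta subunit, -1.12 (SE 0.28) for Kcna1, -1.03 (SE 0.34) for Scn8a and -0.999 (SE 0.33) for Kcna2. Kcna1 and Kcna2 encode shaker-type potassium channels and Scn8a a neuronal sodium channel. Without PILO replicate 3 the log2 fold change was -1.09 for Itpr1, -2.00 for Scn4b, -0.84 for Kcna1, -0.66 for Scn8a and -0.68 for Kcna2, so that all 5 lay closer to 0. Over these 4 genes the median log2 fold change was -1.08, against 0.01 over all transcripts, and 1 (Scn4b, lower) had an adjusted p under 0.05, where 0.13% of all transcripts did in either direction. Without CTRL replicate 1 or CTRL replicate 3 no transcript passed, Scn4b included. These genes were picked from the same libraries for this contrast, so nothing is read from their sign, their separation or this call.

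In PILO+KD vs CTRL none of the 4 channel genes passed the edgeR test, as 0% of all transcripts did. The median log2 fold change was -0.49, against 0.01 over all transcripts, and 1 of the 4, Kcna2, lay lower without overlap, as did 5.17% of transcripts. The log2 fold change was -0.82 (SE 0.33) for Kcna2 and -0.66 (SE 0.33) for Scn4b. In PILO+KD vs PILO none of the 4 passed, as 0% of all transcripts did. Scn4b had a log2 fold change of 1.54 (SE 0.34). The median of the 4 was 0.80, against 0.00 over all transcripts, and 3 of the 4 lay higher without overlap, as did 5.65% of transcripts. Without PILO replicate 3 the median was 0.48, with log2 fold changes of 1.34 for Scn4b, 0.53 for Kcna1, 0.42 for Scn8a and -0.14 for Kcna2, the last of which had been 0.18 with it, beside 0.54 for Itpr1. Because these genes were picked for a difference from CTRL in the same PILO libraries, a rise against PILO is favoured by that choice, and nothing is read from these shares.

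**Figure D3:**
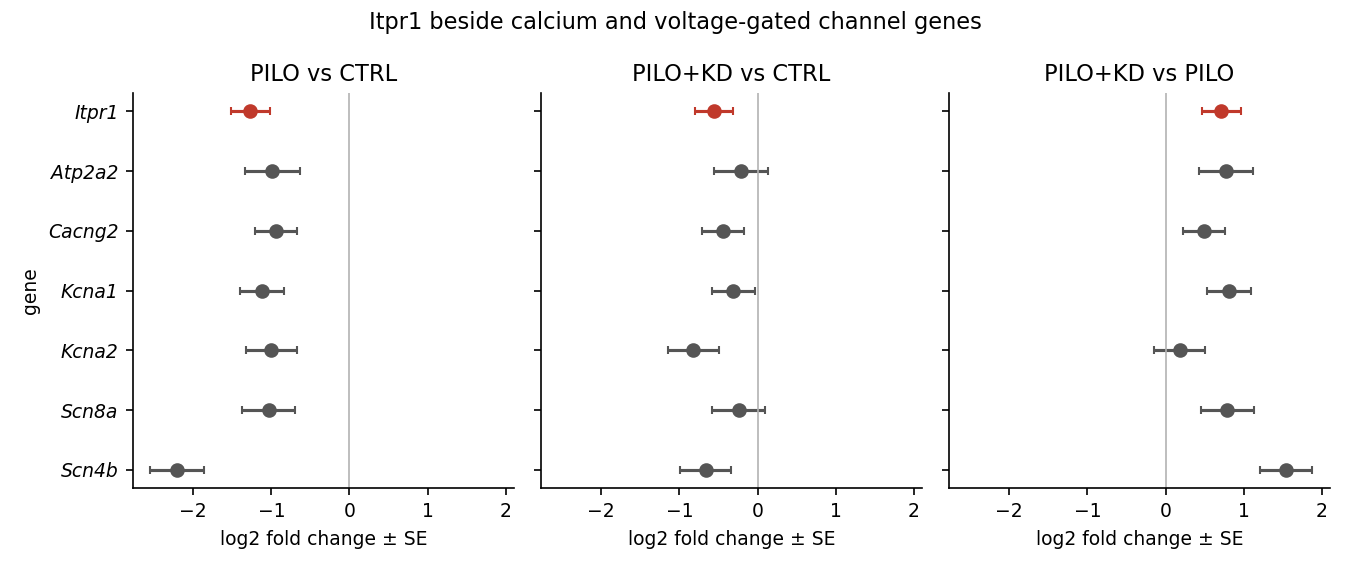
Log2 fold change ± SE (horizontal axis) of Itpr1 (red), Atp2a2, Cacng2 and the 4 voltage-gated channel genes in the 3 contrasts (panels), from 1 fit of 9 libraries. All 7 genes lie below 0 in PILO vs CTRL, from -2.20 for Scn4b to -0.94 for Cacng2, and the values in PILO+KD vs CTRL lie closer to 0, from -0.82 to -0.22.

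The profile of Itpr1 over the 9 libraries was compared with that of other transcripts by the root mean square difference of log2 CPM after each was centred on its own mean. This likeness is a description, and all profiles share the libraries and their scaling. Itpr1 and the named genes were picked for a difference between PILO and CTRL in these libraries, which places genes lower in PILO near Itpr1 and those higher in PILO far from it, so nothing is read from their places among all transcripts. Among the other 23 named genes the nearest were Kcna1 (0.226 log2 units), Pcdh19, a protocadherin (0.228), Ncoa1, a nuclear receptor coactivator (0.231) and Cacng2 (0.254). The median over the 19514 transcripts with a mean of at least 20 counts was 0.655, and 0.179% of these were nearer to Itpr1 than Kcna1. Atp2a2 ranked 13 of 23, at 0.395, and Gfap was the farthest of the 23, at 1.36.

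Kcna1 had the nearest profile among the named genes. It lay at 21.7, 26.1 and 28.0 CPM in CTRL replicates 1 to 3, at 15.2, 13.1 and 6.43 CPM in PILO and at 20.0, 23.6 and 17.4 CPM in PILO+KD. As for Itpr1, replicate 3 was the highest in CTRL and the lowest in PILO, and replicate 2 was the highest in PILO+KD. This order was not particular to Kcna1. It also held for Scn4b, Scn8a, Gabrd, Ncoa1, Ezh1 and Mll1 of the named genes, but not for Pcdh19, Cacng2 or Atp2a2. When group means were removed and only deviations within groups were compared, the nearest named genes were Kcna1 (0.192), Ncoa1 (0.202), Nrip1, a nuclear receptor corepressor (0.207) and Scn4b (0.208), against a median of 0.378 over all transcripts. By this measure 3.25% of transcripts were nearer to Itpr1 than Kcna1.

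**Figure D4:**
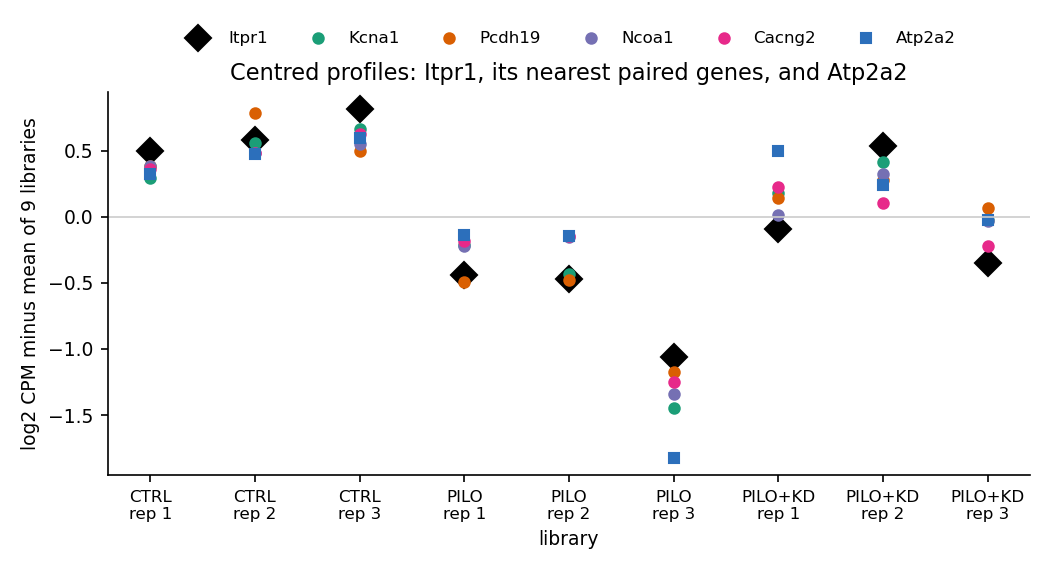
Log2 CPM of each library minus the mean of the 9 libraries (vertical axis) for Itpr1 (black diamonds), the 4 nearest named genes (circles) and Atp2a2 (blue squares), by library (horizontal axis). In PILO replicate 3 Itpr1 lies at -1.06 and Atp2a2 at -1.82, and in PILO+KD replicate 2 Itpr1 lies at 0.53, the highest of the 6 genes.

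Over all transcripts the nearest profiles were those of ENSRNOT00000067486 (0.146) and ENSRNOT00000046467 (0.149), which the file does not pair with a gene. Their counts were equal in 5 of 9 libraries, so that they are taken as 1 pattern. ENSRNOT00000067486 lay at 30.2 ± 5.36 CPM in CTRL, 12.3 ± 3.97 CPM in PILO and 17.6 ± 5.16 CPM in PILO+KD (SD, n = 3 each). It had log2 fold changes of -1.29, -0.77 and 0.52 in the contrasts PILO vs CTRL, PILO+KD vs CTRL and PILO+KD vs PILO.

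Gfap, the glial intermediate filament and the astrocyte marker among the named transcripts, had group means in the order opposite to Itpr1, lowest in CTRL and highest in PILO. It lay at 704, 526 and 770 CPM in CTRL, at 2006, 2853 and 1543 CPM in PILO and at 2632, 834 and 1786 CPM in PILO+KD. The PILO+KD library with the lowest Gfap, replicate 2, was the one with the highest Itpr1, while in PILO the library with the lowest Gfap, replicate 3, also had the lowest Itpr1. Of the neuronal genes, Gabrd, the delta subunit of GABA-A receptors, ranged from 25.4 to 29.3 CPM in CTRL, 12.7 to 15.7 CPM in PILO and 5.75 to 25.5 CPM in PILO+KD. Scn8a ranged from 62.9 to 89.7 CPM in CTRL, 15.3 to 48.3 CPM in PILO and 62.9 to 67.3 CPM in PILO+KD. The part of cell composition in the Itpr1 values was not tested.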

How the data were processed

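Per the labels and the study's methods, poly-A RNA was sequenced as single reads of 36 cycles, and the authors aligned these to rat build rn4 with BWA and summed tags over Ensembl transcript models by a script of their own. The deposited table holds raw counts, 1 column per animal, and how shared reads and strand were handled was not stated. None of the 31786 identifiers matched the RefSeq table, whose build differs, so symbols come from 24 transcripts the study names (another is not reported here), and no coordinates or sequences are given.

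Totals below the 30th centile (under 55 counts) were filtered out, and 22283 transcripts (70.1%) remained. All 9 libraries entered 1 quasi-likelihood fit of edgeR 4.0.16 in R 4.3.3 (TMM, robust, two-sided, 6 residual degrees of freedom), tested on simulated data. Benjamini-Hochberg adjustment ran over all 22283, with a threshold of 0.05. SE is the size of the log2 fold change over the root of F. Logged CPM used a prior count of 2. Besides Itpr1, the calcium and voltage-gated genes of the study's list and the nearest profiles were named (4 by each measure, and 2 identifiers). Alternatives used DESeq2 1.42.0, limma 3.58.1, other scalings and filters, and left out libraries. Replicates were numbered in order of deposition. Itpr1 and the lists were chosen with earlier results of these data known.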

Additional observations from a re-analysis of the deposited data

How the results depend on the processing

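Over 18 alternatives to each contrast Itpr1 kept its sign. The log2 fold change ranged from -1.37 to -1.04 in PILO vs CTRL (-1.37 to -1.09 when 1 library was left out), from -0.85 to -0.38 in PILO+KD vs CTRL (the same range when 1 library was left out) and from 0.36 to 0.89 in PILO+KD vs PILO (0.41 to 0.89). In both diet contrasts the adjusted p stayed above 0.05, from 0.163 to 1 and from 0.300 to 1.00, with the lowest under limma with library quality weights and without PILO replicate 2, respectively. Under limma with quality weights the log2 fold change in PILO+KD vs PILO was 0.36, against 0.71 as reported, and the cause was not tested. Leaving out both PILO replicate 3 and PILO+KD replicate 3, chosen after seeing the data, gave -1.10, -0.38 and 0.71. Without PILO replicate 3, also chosen after seeing the data, Kcna2 changed sign in PILO+KD vs PILO, from 0.18 to -0.14 (neither passed), and the cause was not tested. The number of transcripts with an adjusted p under 0.05 depended far more on the setting. In PILO vs CTRL it was 29, and ranged from 0 (without CTRL replicate 1 or 3) to 1878 (limma with quality weights), with 689 by the edgeR exact test and 746 by DESeq2. In PILO+KD vs CTRL it was 0 by the quasi-likelihood test (803 at an unadjusted p under 0.05), 37 by the exact test, 28 by DESeq2 and 8 by limma, and the quasi-likelihood test gave 8 without PILO+KD replicate 2 and 2 without CTRL replicate 2. In PILO+KD vs PILO it was 0 (1602 unadjusted), 27, 23 and 0, and at most 1 when 1 library was left out. No paired analysis was possible because replicate numbers follow the order of deposition and pair no animals. With 3 libraries per group the two-sided exact permutation test cannot fall below 0.1.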

Other observations

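Itpr1 was not alone in lying farther from PILO towards CTRL in PILO+KD replicate 2 than in the other PILO+KD libraries. On the log2 scale from the PILO mean (0%) to the CTRL mean (100%), this library lay farthest towards CTRL for 16 of the 24 genes compared, Itpr1 included, replicate 1 for 6 and replicate 3 for 2. Places past the CTRL mean counted as farthest. For Nrip1, replicate 2 lay at 141%, whereas replicate 1, at 68.9%, was nearer to the CTRL mean. The median place over the 24 genes was 78.8% for replicate 2, 54.0% for replicate 1 and 48.4% for replicate 3. For Itpr1 replicate 2 lay at 92.6%, for Kcna1 at 92.6% and for Scn4b at 96.4%. Atp2a2 was among the exceptions, with 103% in replicate 1 and 80.4% in replicate 2. This count was made after the values were seen, the genes had been chosen on the CTRL and PILO libraries, and it was not tested. The same count was not made over all transcripts, so nothing is read from it about these genes.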
